A study of Astyanax mexicanus with 14 samples.

Results

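A set of 284 genes, of 19076 genes in the table, had lower expression after UV-B in both cavefish and surface fish of the Mexican tetra. The genes were chosen by their measured values, on a log2 scale of CPM, the counts of a gene scaled to a common library total. A gene was selected on a mean UV-B minus control difference of -0.8 or lower in both populations, a mean of at least 50 counts over the 14 libraries, a mean control level under 1000 CPM and a difference between cave and surface controls of less than 2 in either direction. Of the 12055 genes that met the parts of the rule on level and population, 1018 met the cut in cavefish, 538 met it in surface fish and 284 met both. The UV-B differences of these genes are therefore given as a description, and their adjusted p-values carry no support for the direction by which the genes were picked.

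RNA was sequenced from whole larvae 6 days after fertilization, each library made from a pool of 4 larvae taken 90 min after the exposure. The groups were Pachon cave morph larvae given 60 s of UV-B (n = 3 libraries, replicates 1, 2 and 4), Pachon cave morph larvae under a white light control (n = 3, replicates 2, 3 and 4), surface morph larvae given 60 s of UV-B (n = 4) and surface morph larvae under the white light control (n = 4). No group carried a transgene, a deletion or another agent according to the labels, and each value is an average over 4 pooled animals and over all their tissues. The comparison asks which genes lose expression shortly after ultraviolet exposure in a river population and in a cave population that lives without sunlight.

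UV-B is the band of sunlight that DNA absorbs directly, and the resulting lesions between neighbouring pyrimidines block RNA polymerase on the transcribed strand. Cells answer with repair, with a halt of the cell cycle and with a rapid rise of stress genes. Hedgehog, Wnt and TGF-beta ligands are secreted signals of development, and each acts through membrane receptors on a small set of transcription factors. In a fish larva these signals pattern fins, skin, muscle and nerve tracts.

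Library totals were between 7.42 and 15.26 M counts. The 500 genes with the most counts took 59.1 to 64.0% of a library in cave UV-B libraries, against 50.9 to 56.4% in cave controls, and 50.6 to 53.1% in surface UV-B libraries, against 46.2 to 48.6% in surface controls. This concentration of counts moved with UV-B, and its part in the results below was not tested. Levels are normalised CPM with TMM scaling, which holds the middle of all genes near 0 change. Scaled by library totals in its place, the median log2 fold change of all genes tested moved to -0.33 in cavefish and -0.18 in surface fish, and that of the 284 genes was -1.48 in cavefish and -1.24 in surface fish, with all 284 below 0 in each population.

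The 284 genes together held 0.261, 0.318 and 0.274% of the counts in cave UV-B replicates 1, 2 and 4, against 0.910, 0.820 and 0.811% in cave control replicates 2, 3 and 4. In surface fish they held 0.363, 0.396, 0.369 and 0.337% in UV-B replicates 1 to 4, against 0.878, 0.973, 0.918 and 0.824% in control replicates 1 to 4. The UV-B libraries of either population lay below all controls. The group means were 0.284% ± 0.0295 after UV-B and 0.847% ± 0.0546 in controls in cavefish (SD, n = 3 each), and 0.366% ± 0.0241 after UV-B and 0.898% ± 0.0627 in controls in surface fish (SD, n = 4 each).

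**Figure D1:**
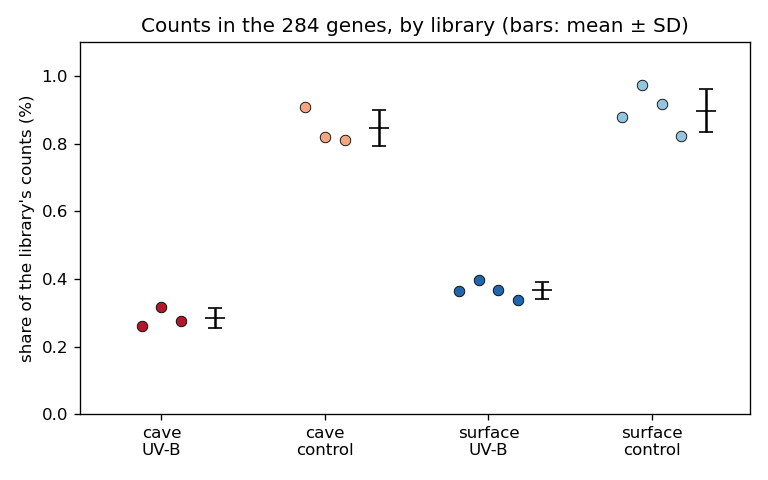
Share of each library's counts (%, vertical axis) held by the 284 genes, with 1 point per library and the mean ± SD of each group beside it. The 3 cave UV-B and 4 surface UV-B libraries sit between 0.261 and 0.396%, and the 7 control libraries between 0.811 and 0.973%.

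Among the 284 genes the cave difference had a median of -1.14 and reached -2.44, and the surface difference had a median of -1.05 and reached -3.27, on the log2 CPM scale. Relative to control, 196 genes were at 50% or less in cavefish, 166 in surface fish and 119 in both. At 25% or less in both populations were 4 genes, zgc:113279, myf5, runx3 and tgfbr2b. Just inside the cut were ENSAMXG00000002862 (cave -1.31, surface -0.80), si:dkey-242g16.2 (cave -0.80, surface -1.38) and cachd1 (cave -1.11, surface -0.80). Just outside it were hs6st1b (cave -0.84, surface -0.80), tbc1d4 (cave -0.85, surface -0.80) and zbtb7b (cave -0.80, surface -1.22), so the boundary separates genes with nearly equal values.

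By edgeR's quasi-likelihood test with Benjamini-Hochberg adjustment, 269 of the 284 were called lower (adjusted p under 0.05) in cavefish, where 13.8% of all 15244 genes tested were called lower. In surface fish 283 of the 284 were called lower, against 15.4% of all 15523 genes tested. In both populations 268 of the 284 were called lower, as were 1212 of all 19076 genes. The median log2 fold change of the set was -1.16 in cavefish and -1.06 in surface fish, with medians of -0.01 and 0.00 over all genes tested. The rule used these contrasts, so nothing further is read from the counts. The 15 genes not called in cavefish had fold changes of -1.08 to -0.75, adjusted p-values of 0.057 to 0.163 and control levels of 6.45 to 13.2 CPM, so they are among the genes of the set with few counts. They include tgfb2, a ligand, and fgfrl1a, a receptor-like protein that binds fibroblast growth factors. The gene not called in surface fish was ENSAMXG00000043658 (log2 fold change -0.95, SE 0.37, adjusted p = 0.0605).

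Every UV-B library lay below every control library of the same population for 272 of the 284 genes in cavefish, against 23.1% of the 12055 genes that met the level and population parts of the rule. In surface fish this held for 274 of the 284, against 16.7% of those genes, and it held in both populations for 264. For 2 genes the groups overlapped in both populations. The share of the 12055 genes was not computed for both populations together, and the rule used these libraries, so nothing is read from these counts.

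**Figure D2:**
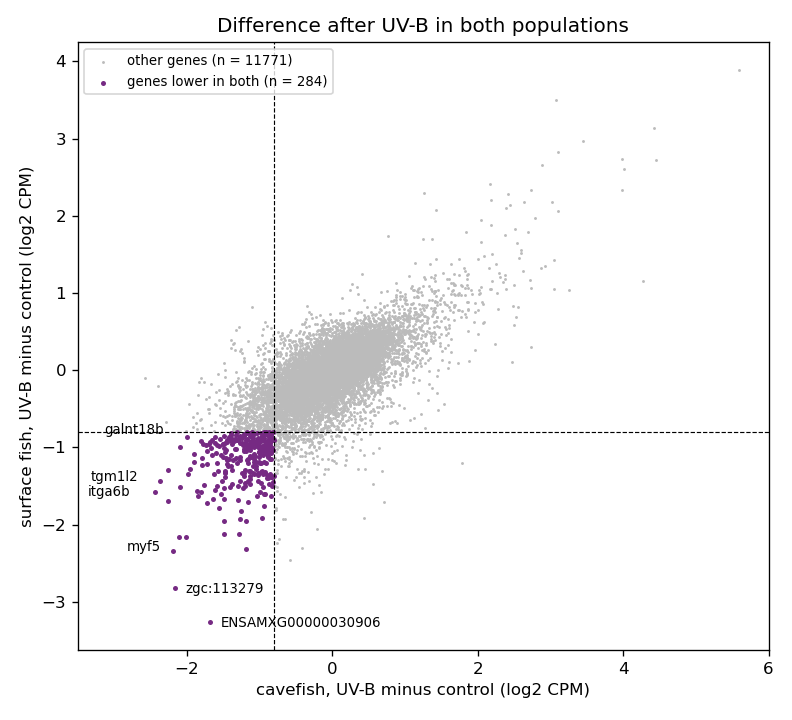
UV-B minus control difference in cavefish (horizontal axis, log2 CPM) and in surface fish (vertical axis, log2 CPM) for the 12055 genes that met the level and population parts of the rule, with 1 point per gene. The 284 genes below both dashed lines at -0.8 reach -2.44 in cavefish and -3.27 in surface fish, and several of the most reduced genes are named.

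The list of somite and muscle progenitor regulators gave 13 of the 284 genes. They include pax7a, pax7b and PAX3, the paired-box factors of the dermomyotome and of muscle stem cells, meox1 and TCF15, factors of the early somite, and myf5, the myogenic determination factor. The most reduced was myf5 (ENSAMXG00000000428), which had 4.04, 2.15 and 3.59 normalised CPM in cave UV-B libraries, against 13.02, 15.7 and 16.7 CPM in cave controls. In surface fish myf5 had 2.91, 1.199, 1.61 and 2.29 CPM after UV-B, against 8.42, 12.6, 10.6 and 10.8 CPM in controls. The UV-B libraries were far below the controls in both populations, with log2 fold changes of -2.20 (SE 0.27) in cavefish and -2.42 (SE 0.25) in surface fish. For pax7a (ENSAMXG00000003799), levels were 18.9, 21.8 and 21.7 CPM in cave UV-B libraries, against 38.2, 46.3 and 37.3 CPM in cave controls. In surface fish pax7a had 30.5, 25.6, 21.0 and 31.8 CPM after UV-B, against 51.5, 42.8, 51.8 and 56.5 CPM in controls. Its reduction was smaller than that of myf5 and again without overlap, with log2 fold changes of -0.97 (SE 0.15) in cavefish and -0.90 (SE 0.13) in surface fish. The phosphatase-type coactivators eya1 and eya2 and their DNA-binding partner six4b, which act upstream of the myogenic factors, were also in the set. The log2 fold changes of eya1, eya2 and six4b were -1.30, -1.69 and -1.49 in cavefish and -1.84, -1.71 and -1.31 in surface fish. The list also held met, the receptor through which muscle precursors respond to hepatocyte growth factor (-1.16 in cavefish, -1.45 in surface fish). The 13 also count prrx1a and prrx1b, homeobox factors of connective tissue and fin mesenchyme, so the list is wider than its name. The other genes of the list, lbx1a, myog and tbx15, were called lower in surface fish but not in cavefish, where adjusted p-values were 0.228, 0.550 and 0.576.

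Epidermal regulators gave 6 genes. tp63 (ENSAMXG00000004843), the p53-family factor that maintains basal keratinocytes, had 9.33, 9.66 and 8.30 CPM in cave UV-B libraries, against 22.3, 35.8 and 28.9 CPM in cave controls. In surface fish tp63 had 7.79, 8.12, 6.54 and 4.46 CPM after UV-B, against 17.1, 19.4, 21.1 and 12.1 CPM in controls. Neither population showed overlap, and log2 fold changes were -1.67 (SE 0.21) in cavefish and -1.36 (SE 0.20) in surface fish. The grainyhead factors grhl1, grhl2a and grhl2b, which control epithelial barrier genes, were all in the set, with fold changes of -1.49, -1.87 and -1.02 in cavefish and of -1.93, -1.24 and -1.34 in surface fish. dlx3b, a homeobox factor of the ectoderm, and nipal4, a membrane transporter needed for the skin barrier in mammals, completed the 6. Of the 14 genes of the list with an identifier, 9 were called lower in cavefish, 12 in surface fish and 7 in both. Of all 2077 genes with a symbol, the numbers were 858, 1128 and 760.

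The labelled tissue was the whole body, and 9 defining markers of its cell types could be measured. In epidermis they were tp63, grhl1 and cldni, in muscle progenitors myf5, pax7a, pax7b, meox1 and PAX3, and in neurons elavl4. All 9 were called lower in both populations, as were 760 of all 2077 genes with a symbol. Of all genes tested, 13.8% were called lower in cavefish and 15.4% in surface fish. The count of 9 was largely fixed beforehand, since 7 of the 9 were in the set and symbols were at hand mainly for genes that changed. The exceptions were cldni (log2 fold change -0.79 in cavefish and -0.68 in surface fish) and the neuronal RNA-binding protein gene elavl4 (-0.97 in cavefish and -0.57 in surface fish). Markers of differentiated muscle, liver, lens and erythrocytes carried no symbol here. Neither did the epidermal markers krt4 and krt5 or the neuronal markers elavl3, snap25a, snap25b and stmn2a, so elavl4 alone stands for neurons. In RNA of whole larvae, fewer cells of a type and less RNA per cell cannot be told apart.

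**Figure D3:**
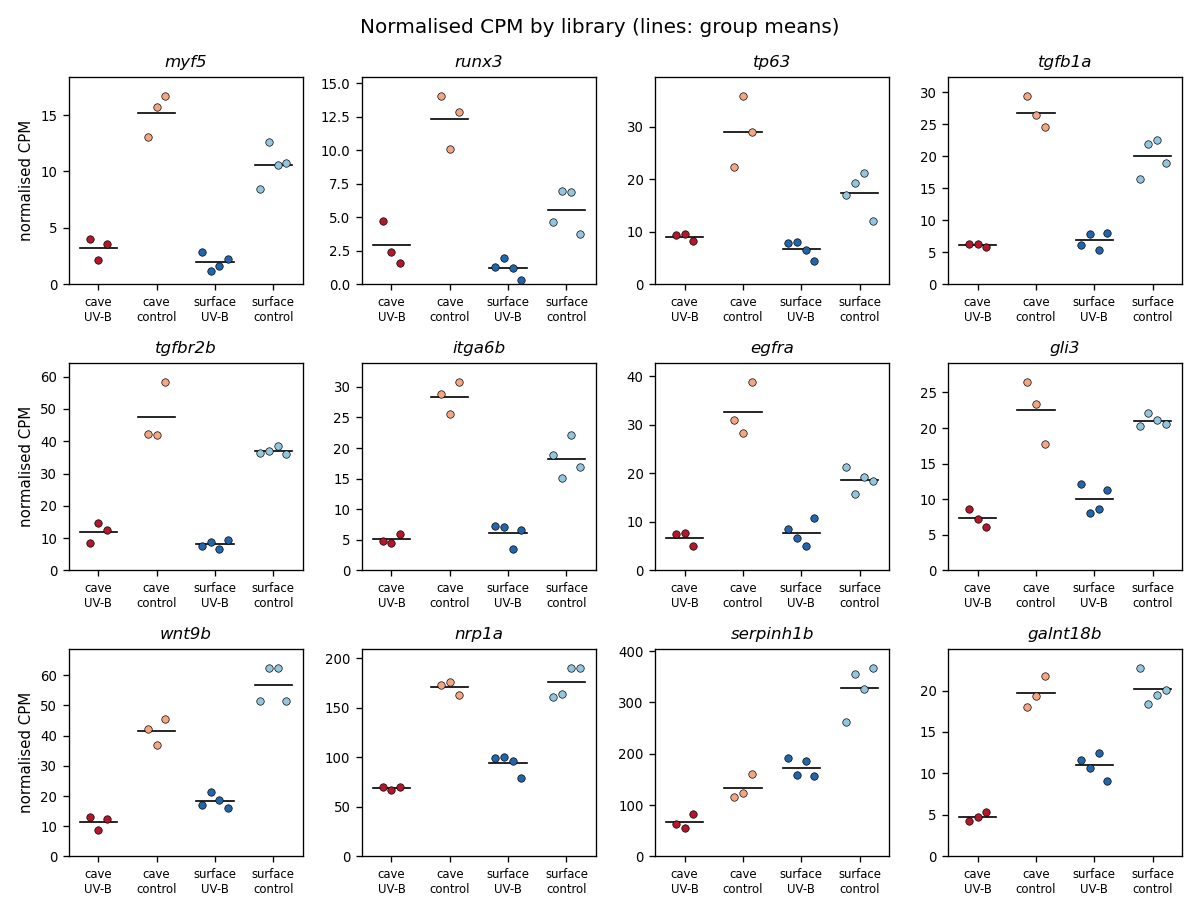
Normalised CPM (vertical axes, starting at 0) of 12 of the 284 genes in every library, with cave UV-B, cave control, surface UV-B and surface control libraries from left to right in each panel and lines at group means. In each of the 12 panels the UV-B points lie below the control points of the same population, as for myf5 with 2.15 to 4.04 CPM in cave UV-B libraries and 13.02 to 16.7 CPM in cave controls.

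The set held 6 genes of the Hedgehog pathway, and they cover its receptors and its effectors. hhip, which binds and sequesters Hedgehog ligands, and boc, a co-receptor, stand at the cell surface, and gli1, gli2a, gli2b and gli3 are the transcription factors at the end of the pathway. gli3 (ENSAMXG00000002477) had 8.63, 7.21 and 6.07 CPM in cave UV-B libraries, against 26.5, 23.3 and 17.8 CPM in cave controls. In surface fish gli3 had 12.1, 8.12, 8.61 and 11.3 CPM after UV-B, against 20.3, 22.2, 21.1 and 20.6 CPM in controls. The log2 fold change was -1.63 (SE 0.22) in cavefish and -1.07 (SE 0.14) in surface fish, with no overlap. For boc (ENSAMXG00000014704), which had narrow groups, levels were 52.6, 48.6 and 49.9 CPM in cave UV-B libraries, against 103.9, 101.5 and 109.4 CPM in cave controls, and 43.0, 47.6, 45.0 and 48.3 CPM in surface UV-B libraries, against 99.8, 101.3, 95.9 and 100.0 CPM in surface controls. Its fold changes of -1.06 (SE 0.11) in cavefish and -1.11 (SE 0.08) in surface fish differed by less than their errors. gli1, which is a target of the pathway as well as an effector, had -0.88 in cavefish and -0.94 in surface fish, and hhip, another target, had -0.95 in cavefish and -0.90 in surface fish. All 11 Hedgehog genes with an identifier were called lower in both populations, as were 760 of all 2077 genes with a symbol. Those outside the set include the receptor ptch1 (-0.78 in cavefish, -0.81 in surface fish), the transducer smo, the co-receptor cdon and disp1, which releases the ligand.

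In the Wnt pathway the set held 9 genes, among them the ligands wnt5a, wnt9b and wnt16 and the R-spondins rspo2 and rspo3, secreted proteins that strengthen Wnt signals. wnt9b (ENSAMXG00000034910) had 13.1, 8.89 and 12.4 CPM in cave UV-B libraries, against 42.1, 36.8 and 45.5 CPM in cave controls. In surface fish wnt9b had 17.0, 21.2, 18.7 and 16.0 CPM after UV-B, against 51.4, 62.4, 62.3 and 51.5 CPM in controls. The drop was of like size in both populations, with log2 fold changes of -1.85 (SE 0.18) in cavefish and -1.64 (SE 0.12) in surface fish. rspo3 had -1.78 in cavefish and -1.10 in surface fish, and wnt5a, a ligand of the branch that acts without beta-catenin, had -1.17 in cavefish and -1.75 in surface fish. The receptor ror1, which binds wnt5a, had -1.51 in cavefish and -0.96 in surface fish. Inside the cell, the set held axin2 and nkd3, which restrain the pathway, and the DNA-binding factor tcf7l1b. For axin2 the cave groups overlapped, with 3.06, 6.75 and 3.84 CPM in UV-B libraries, against 15.2, 10.99 and 6.05 CPM in controls, and its adjusted p of 0.0220 in cavefish (log2 fold change -1.26, SE 0.37) rose past 0.05 when any of 3 libraries was left out, to 0.122 (cave UV-B replicate 1), 0.101 (cave UV-B replicate 4) or 0.0754 (cave control replicate 2). Another gene with the symbol AXIN2 lay outside the set (-1.30 in cavefish, -0.70 in surface fish). Of 24 Wnt genes with an identifier, 18 were called lower in cavefish and 24 in surface fish. Of all 2077 genes with a symbol, 858 were called lower in cavefish and 1128 in surface fish.

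TGF-beta and BMP genes gave 9 of the set, and they run from ligand to inhibitor. The ligands were tgfb1a and tgfb2, the receptors tgfbr1b, tgfbr2b and bmpr1bb, the accessory proteins lrrc32, which presents latent TGF-beta on the cell surface, and hjv, a BMP co-receptor, and the inhibitors bambib, a decoy receptor, and smad6b, an inhibitory SMAD. tgfbr2b (ENSAMXG00000020393) had 8.35, 14.6 and 12.5 CPM in cave UV-B libraries, against 42.2, 42.1 and 58.3 CPM in cave controls. In surface fish tgfbr2b had 7.68, 8.76, 6.66 and 9.47 CPM after UV-B, against 36.2, 36.9, 38.6 and 36.01 CPM in controls. The highest UV-B library stayed well under the lowest control, and the log2 fold change was -2.01 (SE 0.21) in cavefish and -2.18 (SE 0.13) in surface fish. tgfb1a (ENSAMXG00000009747) had 6.26, 6.29 and 5.82 CPM in cave UV-B libraries, against 29.4, 26.5 and 24.5 CPM in cave controls. In surface fish tgfb1a had 6.17, 7.93, 5.39 and 8.06 CPM after UV-B, against 16.4, 21.9, 22.5 and 19.0 CPM in controls. The ligand had log2 fold changes of -2.13 (SE 0.19) in cavefish and -1.53 (SE 0.16) in surface fish. The rule selected ligand and receptor alike for lower values in the UV-B libraries. smad6b had -2.01 in cavefish and -1.28 in surface fish. The other receptor subunit, tgfbr1b, was weakly measured in cavefish, with 6.12, 5.52 and 3.84 CPM after UV-B, against 14.3, 9.09 and 6.16 CPM in controls, and its adjusted p of 0.0478 there rose past 0.05 in 7 of the alternatives tried, to 0.210 without cave control replicate 2. Of 15 genes of the list with an identifier, 11 were called lower in cavefish and 15 in surface fish, beside 858 and 1128 of all 2077 genes with a symbol.

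Axon guidance gave 12 genes, which are neuropilins, plexins, semaphorins, ephrins with their receptors, and netrin receptors. nrp1a (ENSAMXG00000019057), a neuropilin that binds semaphorins and vascular growth factors, had 69.9, 67.0 and 70.2 CPM in cave UV-B libraries, against 173.1, 176.5 and 163.1 CPM in cave controls. In surface fish nrp1a had 99.45, 100.8, 96.9 and 79.4 CPM after UV-B, against 161.4, 164.5, 190.3 and 190.0 CPM in controls. The log2 fold change was -1.31 (SE 0.11) in cavefish and -0.91 (SE 0.10) in surface fish. Its relatives nrp1b (-1.04 in cavefish, -0.82 in surface fish) and nrp2a (-1.68 in cavefish, -1.02 in surface fish) were in the set too, with the semaphorins sema4ba and sema6e, the plexin plxnb3, the ephrins efna2b and efna5a, the Eph receptors epha2b and ephb4b, and the netrin receptors unc5a and UNC5C. Of 36 genes of the list with an identifier, 28 were called lower in cavefish, 33 in surface fish and 26 in both. The numbers among all 2077 genes with a symbol were 858, 1128 and 760. epha2a, a near relative of epha2b, was called higher in cavefish (1.02, adjusted p = 0.000553) and was not called in surface fish (0.11, adjusted p = 0.512).

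Growth factor and cytokine receptor genes gave 10 of the set. egfra (ENSAMXG00000012474), the epidermal growth factor receptor, had 7.52, 7.67 and 5.08 CPM in cave UV-B libraries, against 31.05, 28.4 and 38.85 CPM in cave controls. In surface fish egfra had 8.49, 6.64, 5.05 and 10.8 CPM after UV-B, against 21.4, 15.7, 19.3 and 18.5 CPM in controls. All UV-B libraries were lower, with log2 fold changes of -2.29 (SE 0.21) in cavefish and -1.27 (SE 0.19) in surface fish. lifrb, a receptor subunit for leukemia inhibitory factor, showed the reverse order of sizes, with -1.28 (SE 0.19) in cavefish and -1.94 (SE 0.12) in surface fish. fgfr3, ghra, met, MUSK and pdgfra are further receptors in the set, gab1 and gab2 are adaptors that pass on their signal, and nrg1 is a ligand. For pdgfra the surface groups overlapped, with 4.89, 9.78, 7.69 and 2.94 CPM after UV-B, against 9.31, 13.6, 12.2 and 8.36 CPM in controls, and its adjusted p of 0.0463 rose past 0.05 in 7 alternatives, to 0.130 without surface UV-B replicate 1. Of 28 genes of the list with an identifier, 19 were called lower in cavefish, 26 in surface fish and 18 in both. The numbers among all 2077 genes with a symbol were 858, 1128 and 760. irs2a, outside the set, was called higher in surface fish (0.44, adjusted p = 0.00164) and was not called in cavefish (0.32, adjusted p = 0.0952).

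The Hippo pathway, which restrains organ growth, gave 7 genes. fat2, an atypical cadherin, had log2 fold changes of -1.74 (SE 0.17) in cavefish and -1.73 (SE 0.13) in surface fish. lats2, a core kinase, had -1.36 (SE 0.17) in cavefish and -1.17 (SE 0.11) in surface fish. tead3b is a DNA-binding effector, vgll2a is a TEAD partner, and amot, amotl2b and wwc3 are regulators upstream of the effectors. Of 17 genes of the list with an identifier, 12 were called lower in cavefish, 16 in surface fish and 12 in both. The numbers among all 2077 genes with a symbol were 858, 1128 and 760. ccn1, a secreted target of the pathway, was called higher in both populations.

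Matrix and adhesion genes gave 12 of the set. itga6b (ENSAMXG00000000536), an integrin subunit that binds laminin, had 4.87, 4.45 and 5.95 CPM in cave UV-B libraries, against 28.9, 25.6 and 30.8 CPM in cave controls. In surface fish itga6b had 7.33, 7.10, 3.44 and 6.64 CPM after UV-B, against 18.8, 15.0, 22.1 and 16.9 CPM in controls. The cave log2 fold change of -2.47 (SE 0.20) was the lowest of the 284 in cavefish, and the surface one was -1.57 (SE 0.20). The laminin chain lamc1 had -1.27 in cavefish and -1.13 in surface fish. serpinh1a and serpinh1b, the collagen chaperones, had -1.36 and -0.996 in cavefish and -1.26 and -0.92 in surface fish. Others were itga9, the syndecan SDC1, the cadherin cdh4, the tensins tns1b, tns2b and TNS3, which link integrins to actin, and dse and ext1b, enzymes of the sugar chains on proteoglycans. Of 31 genes of the list with an identifier, 24 were called lower in cavefish, 26 in surface fish and 22 in both. Among all 2077 genes with a symbol the numbers were 858, 1128 and 760. DSEL and lama3 were called higher in both populations. itga6l, a relative of itga6b by name, was called higher in cavefish (0.91, adjusted p = 0.00319) and was not called in surface fish (0.20, adjusted p = 0.214).

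Lists of stress genes behaved differently. As a background, 652 of all 2077 genes with a symbol were called higher in cavefish and 779 in surface fish. Among all genes tested, 1917 of 15244 were called higher in cavefish and 2073 of 15523 in surface fish. The number called higher in both populations was not computed. In the p53 family list, tp63 and tp73 were in the set, while the 6 other genes with an identifier, cdkn1a, btg2, sesn2, ccng1, gadd45ba and rps27l, were called higher in both populations. tp73, a p53 relative with roles in neurons and ciliated cells, had log2 fold changes of -1.43 (SE 0.26) in cavefish and -1.55 (SE 0.21) in surface fish. Of 19 immediate early genes, which are the first to be switched on by stimuli, 16 were called higher in cavefish and 15 in surface fish, and nr4a3, a nuclear receptor, was in the set. nr4a3 had 10.2, 12.3 and 12.8 CPM in cave UV-B libraries, against 37.2, 39.1 and 30.6 CPM in cave controls, and 25.01, 22.96, 25.5 and 21.99 CPM in surface UV-B libraries, against 70.1, 46.4, 45.1 and 63.2 CPM in surface controls. It therefore stood apart from most genes of its list. KLF2, outside the set, was called lower in cavefish (-1.46) but not in surface fish (-0.93). NR4A1, a relative of nr4a3 by name, was called lower in surface fish (-0.60) but not in cavefish (0.60). Of the 5 clock genes measured, none was in the set: per2, cry1a and dbpb were called lower in cavefish, and 4 of the 5 were called higher in surface fish.

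Symbols came from a table of the genes with the smallest p-values in the study, so each list holds genes that changed more often than an average gene. Over all 2077 genes with a symbol, 858 were called lower in cavefish, 1128 in surface fish and 760 in both. Their median log2 fold changes were -0.40 in cavefish and -0.44 in surface fish, and 11.5% were in the set. The share in the set was 81.2% in the somite list, 60% in the TGF-beta and BMP list and 54.5% in the Hedgehog list. It was between 33.3 and 42.9% in the Wnt, axon guidance, epidermal, Hippo, growth factor and matrix lists. In the p53, immediate early and clock lists it was 25, 5.26 and 0%. Each share counts only genes with an identifier. The lists were chosen with earlier results of these data known, so nothing is read from these shares.

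**Figure D4:**
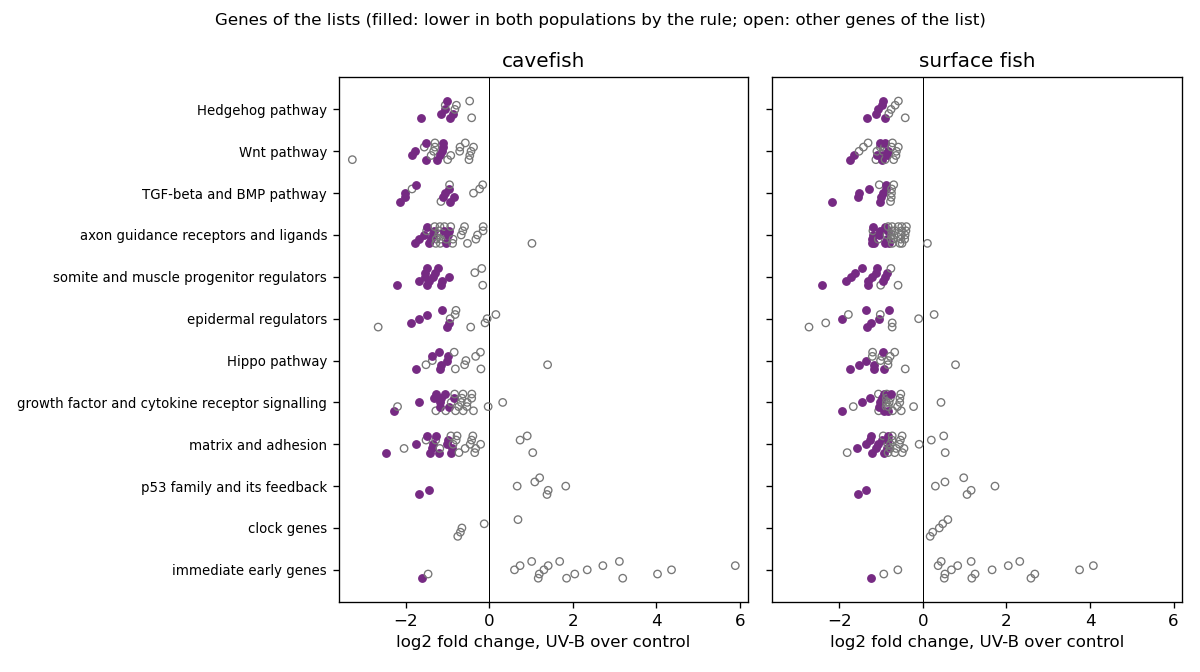
log2 fold change of UV-B over control (horizontal axes) for every gene of 12 lists in cavefish (left) and surface fish (right), with 1 point per gene, filled where it belongs to the 284. The upper 9 lists lie mostly below 0, with medians of -1.33 in cavefish and -1.17 in surface fish for the somite list, while most immediate early genes lie above 0.

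Of 28 gene names that a member shared with another gene but for case or a final a or b after a digit, 19 had 1 gene in the set and the other outside it, such as itga6b and itga6a or nrp2a and nrp2b. In the other 9 cases both were in the set, which accounts for 18 of the 284: gli2a and gli2b, grhl2a and grhl2b, meis1a and meis1b, nrp1a and nrp1b, pax7a and pax7b, pdzrn4 and PDZRN4, prrx1a and prrx1b, serpinh1a and serpinh1b, and slc43a1a and slc43a1b. prrx1a and prrx1b, homeobox factors of connective tissue and fin mesenchyme, were close to each other, at -1.53 and -1.39 on the log2 CPM scale in cavefish and at -1.10 and -1.24 in surface fish. meis1a and meis1b, cofactors of Hox proteins, differed more in cavefish (-1.07 and -1.98) than in surface fish (-1.19 and -1.34). Reads shared by near-identical copies can move counts between them, and the way such reads were counted is not given in the sources used here. By gene order in the RefSeq annotation of assembly AstMex3_surface, 5 pairs of the set were direct neighbours among 204 genes placed by symbol: plcd1a and vill, fancc and aopep, hoxc12a and hoxc13a, ebf3a and ptprea, and cped1 and wnt16. Another gene with the symbol ebf3a lay outside the set, so the pair of ebf3a and ptprea is uncertain. How often other genes form such pairs was not computed, so nothing is read from the number of pairs. The strand setting of the counts is not known, so reads of overlapping neighbours could be mixed.

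The most reduced genes without a list included 3 with little or no annotation. ENSAMXG00000030906 had 3.76, 5.52 and 4.21 CPM in cave UV-B libraries, against 21.7, 12.1 and 11.9 CPM in cave controls. In surface fish it had 1.16, 1.38, 1.61 and 0.762 CPM after UV-B, against 10.5, 20.95, 13.8 and 10.1 CPM in controls. zgc:113279 had 2.09, 2.30 and 2.23 CPM in cave UV-B libraries, against 7.71, 14.7 and 10.3 CPM in cave controls. Its surface levels were also low after UV-B, and its log2 fold changes were -2.30 (SE 0.32) in cavefish and -2.89 (SE 0.24) in surface fish. runx3 (ENSAMXG00000042449), a Runt-domain factor of cartilage, nerve and blood cell development, had 4.73, 2.45 and 1.61 CPM in cave UV-B libraries, against 14.1, 10.1 and 12.9 CPM in cave controls. In surface fish runx3 had 1.28, 1.94, 1.26 and 0.327 CPM after UV-B, against 4.65, 6.95, 6.86 and 3.77 CPM in controls, so it was low in both groups there but did not overlap. Its fold changes were -2.08 (SE 0.34) in cavefish and -2.18 (SE 0.37) in surface fish. adgrg2a, an adhesion G protein-coupled receptor, had -2.27 (SE 0.24) in cavefish and -1.70 (SE 0.13) in surface fish, and tgm1l2, a transglutaminase, had -2.35 (SE 0.28) in cavefish and -1.54 (SE 0.26) in surface fish. The last of the 10 lowest by mean was ENSAMXG00000042255, with -1.45 (SE 0.35) in cavefish, where the adjusted p of 0.00859 became 0.0665 without cave UV-B replicate 1, and -2.18 (SE 0.24) in surface fish.

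The set was of moderate abundance, with control levels of 6.28 to 330.2 CPM, a median of 17.7 CPM, and 11 genes above 100 CPM. The other 11771 genes that met the level and population parts of the rule had a median of 24.05 CPM. CPM also grows with transcript length, so it does not order genes by their number of transcripts. The 5 with the highest control CPM were ENSAMXG00000043116, ENSAMXG00000030707, serpinh1b, spaca4l and nrp1a. ENSAMXG00000043116 had 135.3, 134.9 and 127.9 CPM in cave UV-B libraries, against 273.4, 400.0 and 265.7 CPM in cave controls, and 112.1, 158.4, 132.4 and 125.0 CPM in surface UV-B libraries, against 337.1, 412.8, 353.8 and 268.7 CPM in surface controls. Its log2 fold changes were -1.24 (SE 0.15) in cavefish and -1.38 (SE 0.12) in surface fish, in a set chosen for such differences. spaca4l had log2 fold changes of -1.13 (SE 0.15) in cavefish and -1.02 (SE 0.11) in surface fish.

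The next question was whether the reduction differed in size between populations. The cave minus surface difference in response had a median of -0.07 over the 284 genes and ran from -1.12 to 1.59 on the log2 CPM scale, with 157 genes lower in cavefish and 127 lower in surface fish. In the population by UV-B interaction of edgeR over all 14 libraries, 7 of the 284 were called more reduced in cavefish, where 2.29% of all 16104 genes tested were called in that direction, and 1 was called more reduced in surface fish, where 1.41% of all genes were. At an unadjusted p under 0.05 there were 41, but the share of all genes at that threshold was not computed, so nothing is read from this number. The rule required a drop in both populations and so bounded this difference. The counts of 7 and 1 are 2.46 and 0.352% of the 284, and nothing further is read from them. The total of 8 became 5 without surface UV-B replicate 1, 5 without cave control replicate 3, 4 without replicate 1 of the cave UV-B group and 5 without its replicate 4.

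The genes more reduced in cavefish were galnt18b, si:ch211-157c3.4, hivep3b, ENSAMXG00000030707, meis2a, nrp2a and meis1b. galnt18b (ENSAMXG00000010122), of a family that starts sugar chains on secreted proteins, had 4.32, 4.75 and 5.33 CPM in cave UV-B libraries, against 18.0, 19.3 and 21.7 CPM in cave controls. In surface fish galnt18b had 11.6, 10.7, 12.5 and 9.04 CPM after UV-B, against 22.7, 18.3, 19.5 and 20.1 CPM in controls. Controls were alike and the cave UV-B libraries were the lowest, with an interaction of -1.16 (SE 0.23, adjusted p = 0.00695). si:ch211-157c3.4 (ENSAMXG00000036753) had 26.0, 27.0 and 24.4 CPM in cave UV-B libraries, against 102.7, 97.0 and 136.3 CPM in cave controls. In surface fish it had 34.2, 31.5, 37.2 and 21.2 CPM after UV-B, against 51.1, 64.9, 62.1 and 67.2 CPM in controls. Here the cave controls were the higher ones, and the interaction was -1.14 (SE 0.22, adjusted p = 0.00617). meis1b (ENSAMXG00000036122) and meis2a (ENSAMXG00000014706), both TALE homeobox factors, had interactions of -0.65 (SE 0.16, adjusted p = 0.0221) and -0.68 (SE 0.14, adjusted p = 0.00718). meis2a had 57.3, 61.8 and 51.4 CPM in cave UV-B libraries, against 174.4, 193.5 and 157.5 CPM in cave controls, and 74.6, 79.7, 77.0 and 85.0 CPM in surface UV-B libraries, against 152.2, 144.1, 154.4 and 158.8 CPM in surface controls. The gene more reduced in surface fish was ENSAMXG00000030906 (interaction 1.70, SE 0.45, adjusted p = 0.0386), whose call was lost in 12 of the alternatives tried. The calls of hivep3b, meis1b and nrp2a were lost in 10, 5 and 3 alternatives, among them the replicate block, where their adjusted p-values were 0.114, 0.0999 and 0.0892.

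**Figure D5:**
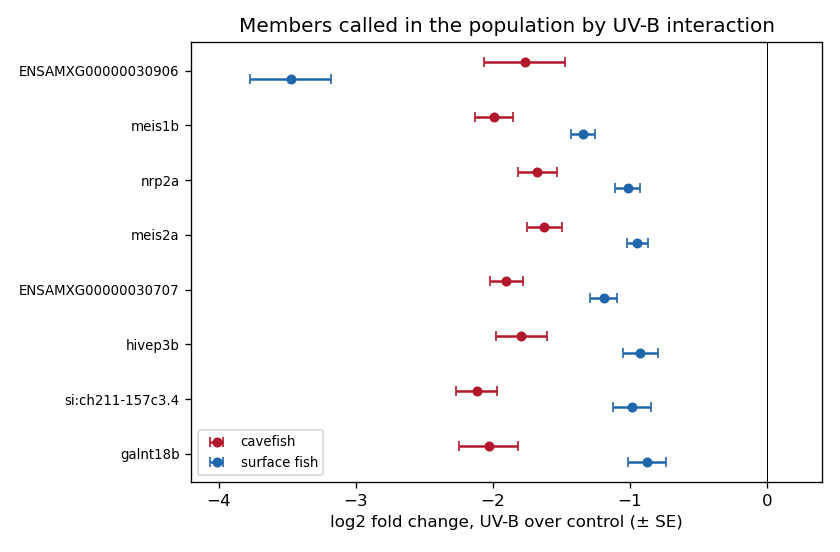
log2 fold change of UV-B over control ± SE (horizontal axis) in cavefish (red, upper point) and surface fish (blue, lower point) for the 8 genes of the set called in the population by UV-B interaction. galnt18b lies at -2.03 in cavefish and -0.88 in surface fish, and ENSAMXG00000030906 is the exception, at -1.77 in cavefish and -3.47 in surface fish.

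The last comparison took the same genes before any UV-B. Between cave and surface controls, 52 of the 284 were called higher in cavefish, where 12.7% of all 15812 genes tested were, and 30 were called lower in cavefish, where 15% of all genes were, but this order turned with the scaling, to 23 higher and 42 lower with library totals. The median log2 difference of the set was 0.12, against -0.03 for all genes tested. With library totals it was -0.07 for the set and -0.21 for all genes, so the set's median lay above that of all genes under either scaling. The control libraries also enter the UV-B differences, and the rule bounded this difference. tgm1l2 had 15.5, 15.0 and 18.0 CPM in cave controls, against 4.87, 6.95, 4.91 and 8.47 CPM in surface controls (log2 difference 1.33, SE 0.22, adjusted p = 0.000498). runx3 (1.14, SE 0.24, adjusted p = 0.00370) and sema6e (1.11, SE 0.16, adjusted p = 0.000158) were also higher in cave controls. serpinh1b (ENSAMXG00000031437) was the reverse, with 115.1, 124.2 and 160.1 CPM in cave controls, against 262.0, 355.5, 325.3 and 366.9 CPM in surface controls (-1.32, SE 0.14, adjusted p = 1.71e-05). After UV-B it had 62.9, 54.9 and 82.2 CPM in cavefish and 191.8, 159.3, 184.9 and 155.7 CPM in surface fish, so 2 of its 3 cave controls lay below all its surface UV-B libraries. The related serpinh1a did not share this difference (0.56, SE 0.20, adjusted p = 0.0557). Among the Hedgehog genes, hhip was called higher in cave controls (0.78, SE 0.12, adjusted p = 0.000261). gli1 was also called higher there (0.50, SE 0.15, adjusted p = 0.0227), but with library totals it had 0.31 and an adjusted p of 0.122, and the call was lost without surface control replicate 3 (adjusted p = 0.0562) or 4 (0.0559) or cave control replicate 4 (0.107). boc, gli2a, gli2b and gli3 were not called, with differences of 0.01 to 0.11.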

How the data were processed

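Whole larvae were measured by RNA sequencing of poly-A RNA in 14 libraries, grouped by the sample labels. The deposited values were raw counts per gene. The authors obtained them by mapping with STAR to genome version 2.0, annotated by Ensembl release 108. Which STAR version was run, whether strand was used and how shared reads were treated are not given in the sources used here. A count sheet supplied with the paper holds larger counts for most genes it shows, and whether the deposited table holds a single strand was not settled, so CPM and totals describe the deposited counts. Library totals of 7.42 to 15.26 M counts set the precision, and counting error covers only part of the spread between pools. Replicates are separate pools, and p-values measure only the spread between these libraries.

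Members were found by the rule on TMM log2 CPM with a prior count of 2. Comparisons were fitted over all genes in R 4.3.3 by edgeR's quasi-likelihood test (version 4.0.16, TMM, filterByExpr, Benjamini-Hochberg, adjusted p under 0.05), each on its own libraries with no covariate, and the interaction over all 14. Each SE is the size of the log2 fold change over the root of its F statistic. Tests were checked on simulated data. DESeq2 1.42.0 and limma-voom (limma 3.58.1), other scalings and filters, a replicate block and leaving out each library were alternatives. The members, the gene lists and the tests were chosen with earlier results of these data known.

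Named genes were the 10 with the lowest mean difference, the 5 with the highest control CPM, the 4 with the largest difference between populations, those nearest the cut, members held by the lists, and members with another copy in the set. Genes named for an interaction call, a missed call or a large difference between controls were chosen after their values were seen. So were the groups by function that were made apart from the lists. Symbols were taken from identifier and name pairs supplied with the paper, which covered 238 of the 284. No identifier matched the reference gene table, whose gene order alone was used. Sequences, gene lengths and promoters were not analysed here.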

Additional observations from a re-analysis of the deposited data

Results flagged for a closer look

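The UV-B response differed between populations by the interaction test for 8 of the 284 genes, against 3.70% of all 16104 genes tested. The rule bounded this difference, so nothing is read from that count. The call was lost in at least 1 alternative for 4 of the 8, which were ENSAMXG00000030906, hivep3b, meis1b and nrp2a. The log2 interaction was 1.70 for ENSAMXG00000030906, and it was -1.16 for galnt18b, -1.14 for si:ch211-157c3.4, -0.87 for hivep3b, -0.71 for ENSAMXG00000030707, -0.68 for meis2a, -0.66 for nrp2a and -0.65 for meis1b, where a negative value means the larger drop in cavefish.

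Of 214 surface groups of 4 libraries examined for the named genes and the summed share, 12 held a library far from the other 3 by Dixon's criterion, or 5.61%, and chance gives about 1 in 20. In surface UV-B libraries the value that stood apart was 3.44 CPM for itga6b and 4.71 CPM for TCF15 in replicate 3, 13.8 CPM for fgfr3 in replicate 3, 5.72 CPM for pdzrn4 and 7.56 CPM for tgfbr1b in replicate 2, and 79.4 CPM for nrp1a, 15.9 CPM for ghra and 8.06 CPM for lrrc32 in replicate 4. In surface controls it was 10.5 CPM for ENSAMXG00000011037 and 15.2 CPM for slc43a1b in replicate 1, 131 CPM for meis1b in replicate 2 and 45.3 CPM for slc43a1a in replicate 3.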

How the results depend on the processing

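The number of genes that met the rule was 284, and it was 263 with DESeq2 size factors and 295 with a prior count of 0.5. It moved to 682 with library totals, 651 with the cut at -0.6, 119 with the cut at -1 and 465 with a minimum mean of 10 counts. Without single libraries it ran from 268 to 319, and between 255 and 276 of the 284 remained. For the fixed 284, the calls lower in cavefish ran from 215 to 257 without single libraries and from 242 to 282 otherwise, and those in surface fish from 277 to 284. The interaction calls ran from 4 to 11 without single libraries and from 5 to 12 otherwise, and those between controls from 65 to 95. The replicate numbers did not pair the samples by the correlation of deviations, which was 0.23 and 0.14 for the 2 shared numbers in cavefish and between -0.05 and 0.14 for the 4 in surface fish. With the replicate block the calls were 242 in cavefish, 283 in surface fish and 5 in the interaction. No direction turned among the named genes in the UV-B responses. The same held for the 8 genes called in the interaction and for the named genes called between controls. Directions of named genes not called there were not followed. Adjusted p-values passed 0.05 in at least 1 alternative for 11 named genes in cavefish and 3 in surface fish. They also did for 4 of the 8 genes called in the interaction and for 16 named genes between controls, and the cause was not tested. In cavefish the genes were axin2, tgfbr1b, efna5a, meis1a, meox2b, MUSK, nipal4, wnt16, si:dkey-242g16.2, ENSAMXG00000011037 and ENSAMXG00000042255. In surface fish they were pdgfra, wnt16 and ENSAMXG00000002862. Genes near 6 CPM in controls are the least precise, and at this depth small differences between populations in the response could go undetected.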

Other observations

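The set held regulators of transcription, grouped here after their values were seen, and some of them, such as myf5 and gli1, are also in the lists above. Their share was not compared with that among all genes with a symbol. By symbol, 49 of the 238 named genes are sequence-specific transcription factors, of which 19 belong to homeobox families and 11 to zinc finger families. Their log2 fold changes ran from -2.20 to -0.88 in cavefish (median -1.34) and from -2.42 to -0.79 in surface fish (median -1.19). The homeobox genes include hoxc12a and hoxc13a, msx2b and msx3, six2a, lmx1bb and zfhx3, and the zinc finger genes include osr1, osr2, trps1, tshz2 and BCL11B. Partners of such factors were present as well, among them cbfb, which binds Runt-domain proteins such as runx3 and had -0.90 in cavefish and -1.17 in surface fish.

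Enzymes that build or modify sugar chains gave 8 genes (dse, chsy1, ext1b, usta, b4galnt3a, galnt18b, b3gnt3.4 and st8sia6), with log2 fold changes of -2.03 to -1.18 in cavefish and of -1.51 to -0.84 in surface fish. The potassium channel genes kcnk5a, kcnk6 and KCNK4 ran from -1.34 to -0.83 in cavefish and from -1.39 to -0.87 in surface fish. MUSK, dok7 and nrg1, whose products act at the neuromuscular synapse, ran from -1.18 to -0.83 in cavefish and from -1.64 to -0.83 in surface fish. The lipid flippase genes atp8b1 and atp10b had -1.31 and -1.78 in cavefish and -2.01 and -1.60 in surface fish. Of the genes in these groups, dse, ext1b, MUSK and nrg1 are also in the lists above.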
